A study of Mus musculus with 9 samples.

Results

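The Slc25 genes encode the mitochondrial carriers, the large family of membrane proteins that move metabolites across the inner mitochondrial membrane. Members were taken by symbol, as every gene named Slc25a followed by a number in the deposited expression tables of mouse brown adipose tissue (BAT), and 44 of the 16937 genes listed in any table met this rule. Of these, 43 are annotated as protein coding and 1, Slc25a5-ps, is a pseudogene. BAT was compared between wild type mice held at 23°C (WT RT), wild type mice exposed to 4°C for 8 h (WT Cold) and mice lacking GCN2 in the whole body exposed to 4°C for 8 h (GCN2 KO Cold), with 3 libraries per group labelled as biological replicates. All animals were adult C57Bl/6J mice reared at 23°C and housed alone for an acclimation period before the exposure. The study used mice of both sexes, and the sex of each library is not given in the sources used here. GCN2, encoded by Eif2ak4, is a kinase that phosphorylates eIF2α when amino acids are short, and the study asked what its loss does to the response of BAT to acute cold.

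Most carriers exchange a solute of the mitochondrial matrix for a solute of the intermembrane space, so that ATP leaves as ADP enters, or malate enters as citrate leaves. In the brown adipocyte these routes feed fatty acyl groups, nucleotides, cofactors and shuttle intermediates to a respiratory chain that heat production keeps busy. The best known relative of the family in BAT, uncoupling protein 1 (Ucp1), dissipates the proton gradient as heat and carries another symbol, so it was not counted as a member.

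Promoter sequences are shown for the members with the largest falls and the largest rise among those that passed the test between WT RT and WT Cold. Each run is the 250 bases before the RefSeq transcription start, read 5′ to 3′ on the gene's strand in GRCm38.p6, at chr16:17928220-17928469 (minus strand) for Slc25a1, chr13:56438105-56438354 (plus strand) for Slc25a48 and chr4:141623835-141624084 (minus strand) for Slc25a34. Capitals mark a match to a searched motif.
Slc25a1: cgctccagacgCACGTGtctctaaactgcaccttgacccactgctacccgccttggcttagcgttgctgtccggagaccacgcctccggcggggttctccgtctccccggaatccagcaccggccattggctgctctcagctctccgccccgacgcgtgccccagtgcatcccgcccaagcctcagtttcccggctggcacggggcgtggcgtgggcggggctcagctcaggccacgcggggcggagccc
Slc25a48: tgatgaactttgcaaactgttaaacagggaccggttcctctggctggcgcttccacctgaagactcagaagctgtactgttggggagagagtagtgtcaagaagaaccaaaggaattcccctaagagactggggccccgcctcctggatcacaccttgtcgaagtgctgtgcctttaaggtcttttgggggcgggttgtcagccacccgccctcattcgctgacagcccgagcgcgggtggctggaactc
Slc25a34: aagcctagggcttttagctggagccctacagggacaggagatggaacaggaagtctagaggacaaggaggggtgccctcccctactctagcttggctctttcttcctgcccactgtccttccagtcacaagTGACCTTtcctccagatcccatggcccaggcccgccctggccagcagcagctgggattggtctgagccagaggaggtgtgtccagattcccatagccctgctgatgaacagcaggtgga
Searches on both strands covered the E-box CACGTG, the cAMP response element TGACGTCA and the nuclear receptor element AAGGTCA, none of which contains another. RefSeq held 44 promoters for 34 of the 44 members, some of which have several starts. The E-box lay in 8 of these 44 promoters (18.2%) and in 6.02% of all 32851 promoters. It was found for Slc25a1 at 239 bases before the start, and for Slc25a13, Slc25a14, Slc25a15, Slc25a31, Slc25a33 and Slc25a36. AAGGTCA was found in 4.08% of all promoters and, among members, only in that of Slc25a34, on the opposite strand at 119 bases before the start. The cAMP response element was present in 1.55% of all promoters and in those of Slc25a25 and Slc25a36. The Slc25a48 window held none of the 3 motifs, which says only that these letters are not in it.

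Each library held between 27058799 and 30768064 reads assigned to genes. Eif2ak4, the targeted gene, was measured at 294, 334 and 369 normalised counts in WT RT, at 181, 238 and 245 in WT Cold and at 367, 395 and 369 in libraries with the label GCN2 KO Cold. The libraries labelled GCN2 KO Cold thus showed no lower level of the gene than those of WT Cold (log2 fold change 0.78, SE 0.15, adjusted p = 0.0932 by limma), and DESeq2 called it higher in them (0.77, adjusted p = 0.0028). Which part of the gene the allele removes is not given in the sources used here, so a count over the whole gene does not check the genotype, and 1 of these libraries has both genotypes in its title. Library C of each cold group stood apart, with Ddx3y, a gene of the Y chromosome, at 206 and 327 against 2390 to 4046 in the other 7 libraries, and Xist, a transcript of the inactive X chromosome, at 3835 and 3982 against 351 to 1342. No WT RT library was of this kind, so this make-up differed between WT RT and the cold groups, and its part in the results against WT RT was not tested. The WT RT libraries carry codes with another prefix than the cold libraries, and what the prefix marks is not given in the sources used here, so that it cannot be told apart from cold exposure. Brown adipocyte markers were present throughout, with Ucp1 between 0.359% and 0.969% of all reads, and the sum of 10 such markers was 499161 to 574359 normalised counts in WT RT, 704967 to 746597 in WT Cold and 885904 to 913906 in GCN2 KO Cold. This sum did not overlap between the groups and stood in the same order as several members below, and its part in their differences was not tested. Its largest parts were Fabp4 and Ucp1. Their means were 279415 and 123338 in WT RT, 327579 and 246650 in WT Cold and 414605 and 297917 in GCN2 KO Cold. The 10 markers did not all move with the sum. In WT Cold, 3 rose and 1, Plin1, fell (-0.34), beside 13.6% and 14.1% of all genes. Adipoq, Prdm16 and Ebf2 had negative log2 fold changes there without passing. In GCN2 KO Cold, 5 rose and 0 fell, beside 16.4% and 17.8%. Summed over 10 genes, skeletal muscle markers amounted to 61952 to 70695 normalised counts in WT RT, 59175 to 93525 in WT Cold and 9086 to 35681 in GCN2 KO Cold. The sum of 6 macrophage markers was 9513 to 13390 in WT RT and 3980 to 7462 in the cold libraries, and that of 6 erythroid markers was 6892 to 9381 and 16801 to 65266. For 4 endothelial markers the sum was 12598 to 14998 in WT RT, 16451 to 19472 in WT Cold and 13867 to 17190 in GCN2 KO Cold. In bulk tissue, fewer cells of a type and less RNA per cell cannot be told apart.

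The members' levels spanned from a mean of 11.5 normalised counts over the 9 libraries to 21084, and 39 of the 44 had a mean of at least 50. Per kilobase of exon and as a mean over the 9 libraries, Slc25a5 stood highest at 10583 normalised counts per kb, followed by Slc25a1 at 8123, Slc25a4 at 5735, Slc25a20 at 4353 and Slc25a39 at 3905. These 5 were also the highest within each group, in another order, with Slc25a1 first in WT RT (14787 normalised counts per kb against 8620 for Slc25a5), below Slc25a5, Slc25a4 and Slc25a20 in WT Cold (4167) and below Slc25a5 and Slc25a4 in GCN2 KO Cold (5416). These 5 genes held 49.5% of the reads of all members. They encode the ubiquitous ADP/ATP carrier, the citrate carrier, the muscle and heart form of the ADP/ATP carrier, the carnitine/acylcarnitine carrier and a carrier needed for mitochondrial glutathione. At the other end stood Slc25a31, the testis form of the ADP/ATP carrier, at 7.73 per kb, Slc25a18, a glutamate carrier, at 6.71, and Slc25a21, the oxodicarboxylate carrier, at 3.53. All members together took 0.531% to 0.583% of the reads of a library, and the groups overlapped in this share. Within it, Slc25a1 made up 19.0% to 21.7% of the member reads in WT RT, 4.78% to 6.40% in WT Cold and 5.26% to 7.65% in GCN2 KO Cold.

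**Figure D1:**
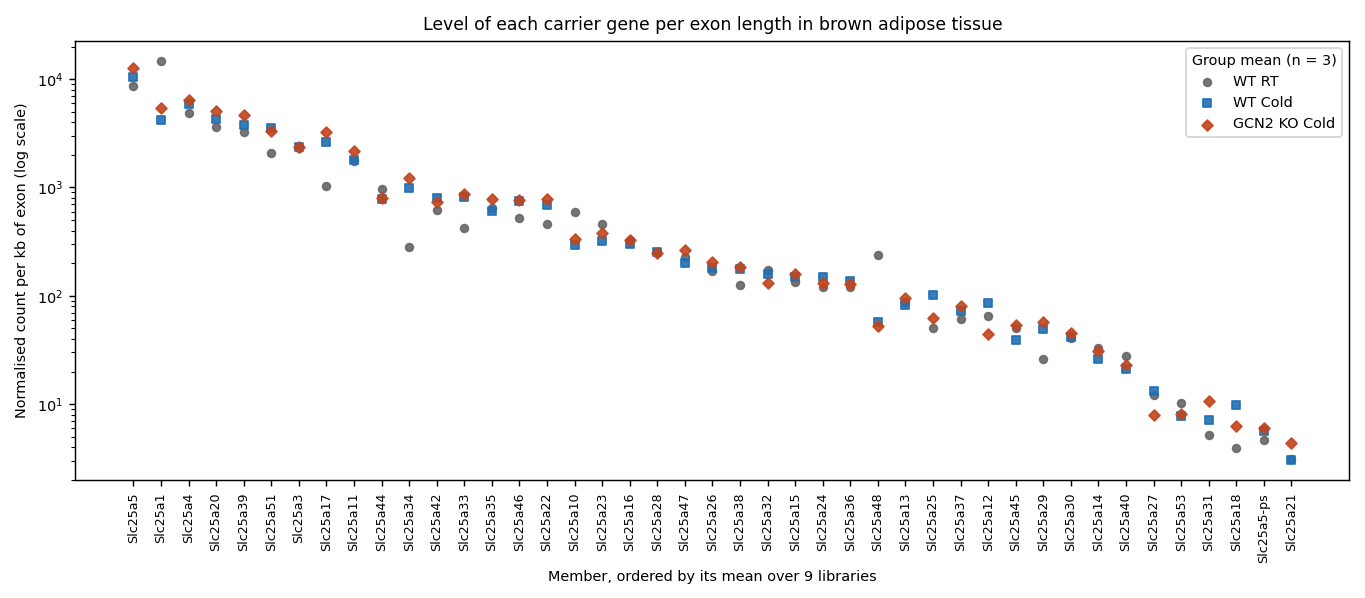
Mean normalised count per kb of exon (log scale) of each member reported here in WT RT, WT Cold and GCN2 KO Cold (n = 3 libraries each), with members ordered by their mean over the 9 libraries. Slc25a1, second in the order at 8123 per kb, and Slc25a48 lie higher in WT RT than in both cold groups, while Slc25a17 and Slc25a34 lie lower.

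Between WT RT and WT Cold, 15 of the 44 members differed past the threshold. Slc25a34, Slc25a17, Slc25a33, Slc25a29, Slc25a51, Slc25a22, Slc25a38, Slc25a46, Slc25a42, Slc25a5 and Slc25a20 rose, and Slc25a48, Slc25a1, Slc25a10 and Slc25a23 fell. The 11 that rose were 25% of the members, where 13.6% of all 16679 genes tested rose, and the 4 that fell were 9.09%, where 14.1% of all genes fell. Past the study's thresholds (adjusted p under 0.05 and a log2 fold change beyond 1 in either direction) were 4 members, or 9.09% against 8.14% of all genes. The members' median log2 fold change was 0.13, and that of all genes was 0.00. Scaling by the library total (CPM) moved the median of all genes to -0.08 and that of the members to 0.05, and the split became 7 that rose (15.9% against 9.41% of all genes) and 6 that fell (13.6% against 17.4%). Without library A of WT RT, 9 members passed, 6 of them higher and 3 lower, and over each library left out in turn 9 to 20 passed. Without library C of WT Cold, Slc25a4, Slc25a12 and Slc25a25 also rose and Slc25a13, Slc25a32 and Slc25a47 also fell, while Slc25a20 did not pass. The share of all genes called in these fits is not given here, so a change in these counts cannot be read as about the members alone.

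In GCN2 KO Cold against the same WT RT libraries, 14 of 43 members rose (32.6% against 16.4% of all 16560 genes) and 3 fell (6.98% against 17.8%). Both thresholds were passed by 6 members, or 14% against 10.6% of all genes, and the members' median log2 fold change was 0.17, beside 0.01 for all genes. With CPM the median of all genes was -0.19 and that of the members -0.03, and 11 members rose (25.6% against 8.97%) while 7 fell (16.3% against 29.1%). The same WT RT libraries serve both comparisons, so these counts are not independent of each other.

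**Figure D2:**
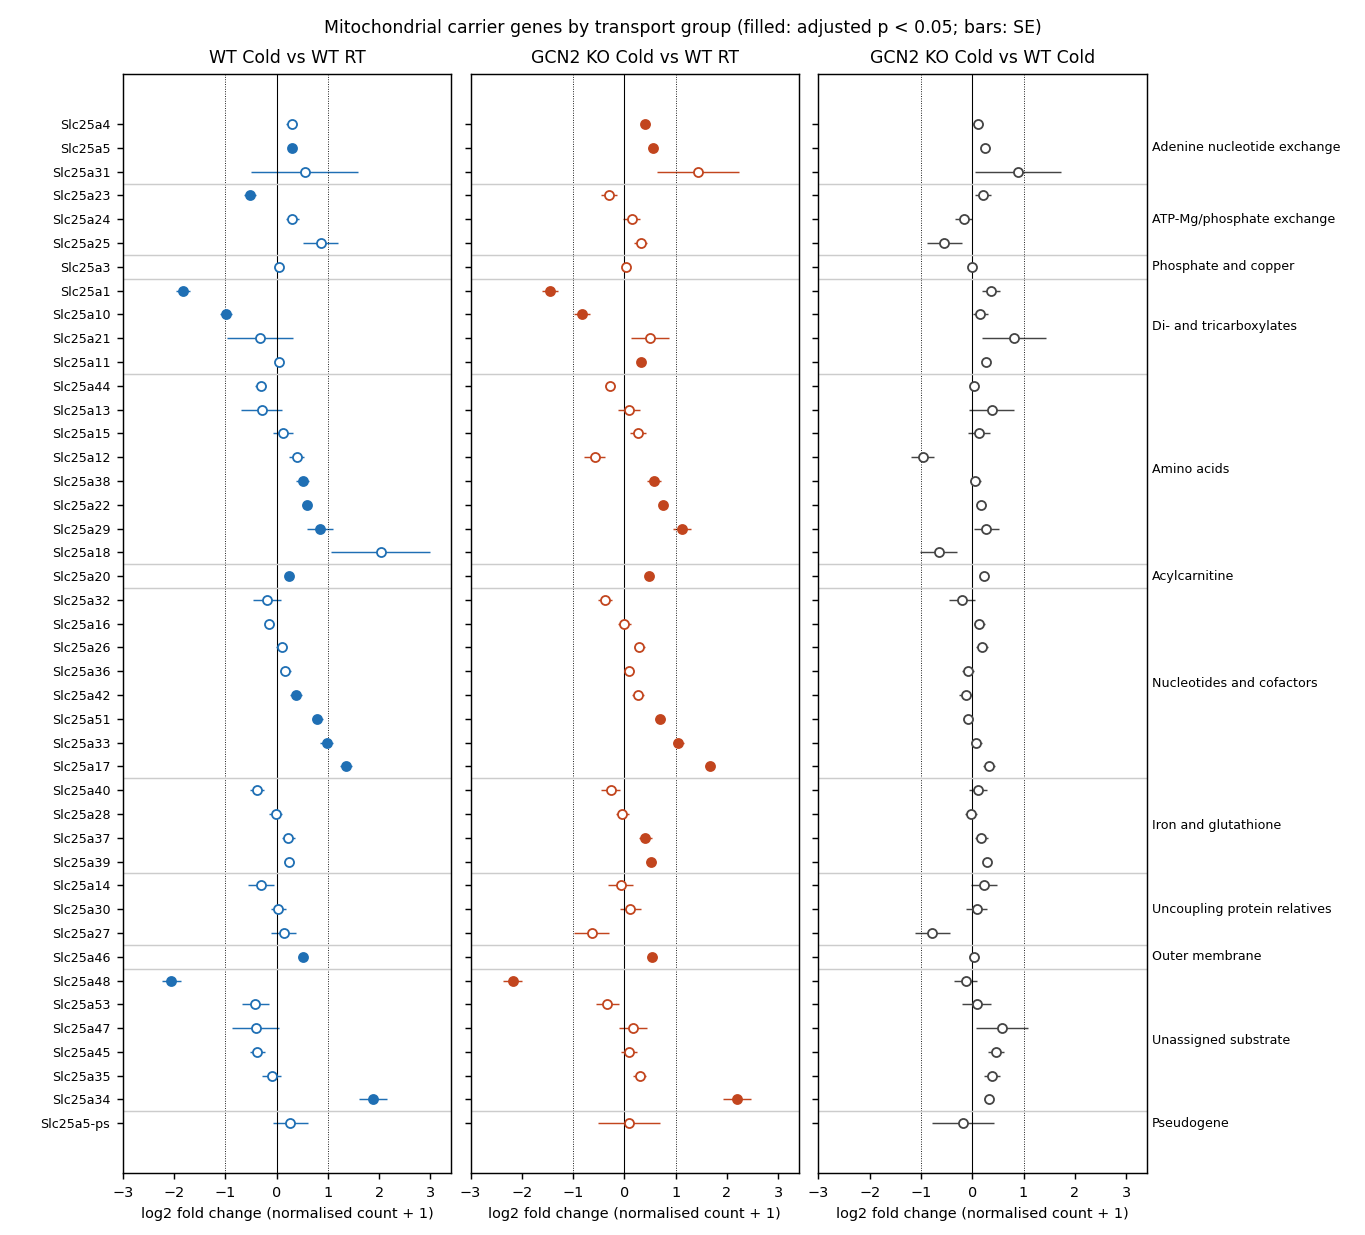
Log2 fold change of each member reported here, on the scale of log2(normalised count + 1), by transport group, for WT Cold against WT RT (left), the knockout against WT RT (middle) and the knockout against WT Cold (right). Points are estimates from 3 libraries per group, bars are standard errors, and filled points have an adjusted p under 0.05. The left and middle panels hold 15 and 17 filled points and the right panel holds none.

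Carriers of di- and tricarboxylates held the deepest fall of an abundant member. Slc25a1 (ENSMUSG00000003528; GENCODE gene span chr16:17925223-17928219 in GRCm38) exports citrate, the source of cytosolic acetyl-CoA for lipid synthesis. It was measured at 28516, 32236 and 35244 normalised counts in WT RT, at 10378, 9213 and 7459 in WT Cold and at 12106, 9126 and 13930 in GCN2 KO Cold. Every WT RT library lay above every cold library, while the cold groups overlapped. The WT Cold mean of 9017 ± 1469 (SD, n = 3) was 0.282 times the WT RT mean of 31999 ± 3371 (log2 fold change -1.83, SE 0.13, adjusted p = 0.000208). For GCN2 KO Cold against WT RT the log2 fold change was -1.46 (SE 0.15, adjusted p = 0.00046).

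Slc25a10 (ENSMUSG00000025792; chr11:120491840-120499187), the dicarboxylate carrier, which exchanges malate or succinate for phosphate, fell as well. Its libraries held 2150, 2234 and 1717 in WT RT, 945, 1077 and 1030 in WT Cold and 1383, 1155 and 916 in GCN2 KO Cold. All 6 cold libraries lay below all WT RT libraries, with log2 fold changes of -0.99 (SE 0.11, adjusted p = 0.00114) in WT Cold and -0.83 (SE 0.16, adjusted p = 0.00543) in GCN2 KO Cold. Slc25a11, the oxoglutarate/malate carrier and a limb of the malate-aspartate shuttle, behaved otherwise, with 3778, 3477 and 3874 in WT RT, 3886, 3770 and 3856 in WT Cold and 4616, 4594 and 4613 in GCN2 KO Cold. It rose in GCN2 KO Cold against WT RT (0.32, SE 0.07, adjusted p = 0.00979), which was not called with CPM (0.12), and its log2 fold change in WT Cold was 0.05 (adjusted p = 0.599). Slc25a21 had 3.87 to 26.5 normalised counts in every library and passed no test.

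**Figure D3:**
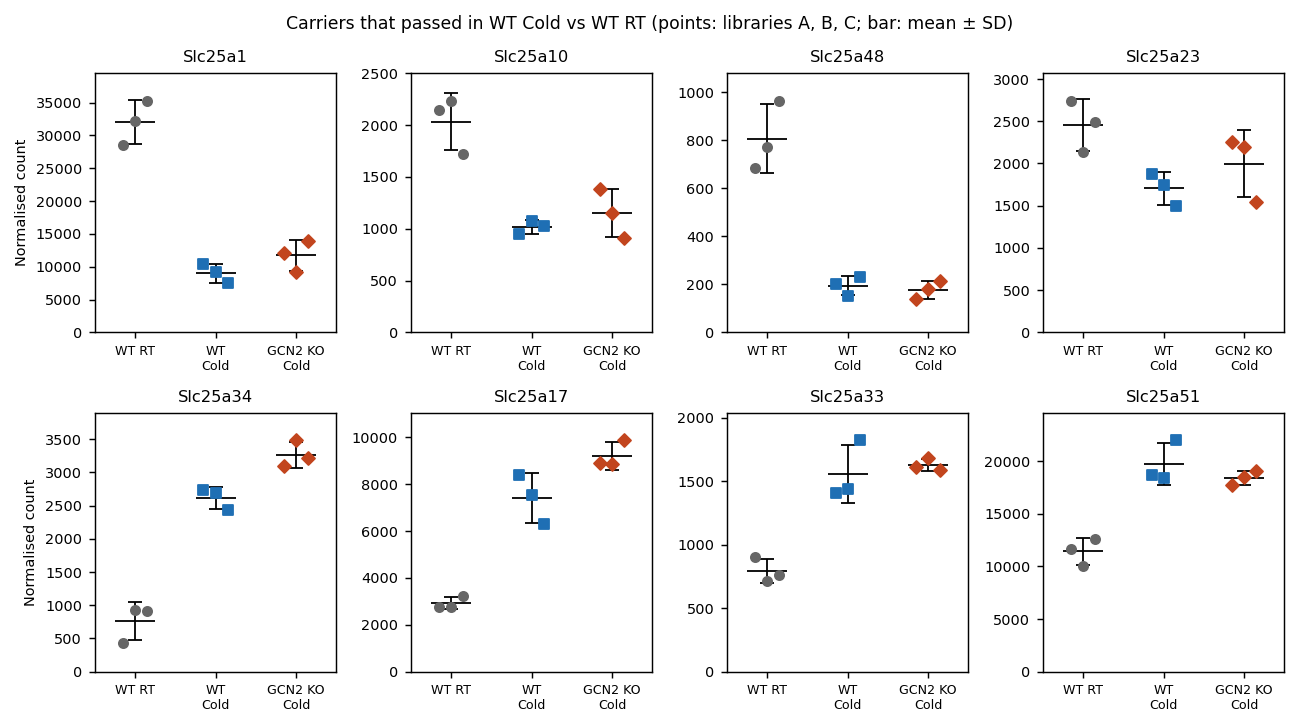
Normalised count of 8 carriers in each library of WT RT, WT Cold and GCN2 KO Cold (points, libraries A, B and C), with the mean and SD of each group (n = 3). Slc25a1, Slc25a10 and Slc25a48 lie lower in all cold libraries than in all WT RT libraries and Slc25a34, Slc25a17, Slc25a33 and Slc25a51 lie higher, while for Slc25a23 the GCN2 KO Cold libraries overlap WT RT.

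Among the carriers of nucleotides and cofactors, 4 of 9 rose and none fell in WT Cold, beside 13.6% and 14.1% of all genes. Under CPM 3 of 9 rose and none fell, beside 9.41% and 17.4% of all genes. The largest change was in Slc25a17 (ENSMUSG00000022404; chr15:81318911-81360812), a carrier of the peroxisomal membrane that transports CoA, FAD and NAD. It went from 2777, 2761 and 3211 in WT RT to 8409, 7526 and 6304 in WT Cold and to 8896, 8841 and 9871 in GCN2 KO Cold. The 3 groups did not overlap, in this order. Its mean was 2.54 times that of WT RT in WT Cold (log2 fold change 1.34, SE 0.12, adjusted p = 0.000423) and 3.16 times in GCN2 KO Cold (1.66, SE 0.09, adjusted p = 3.09e-05).

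Slc25a33 (ENSMUSG00000028982; chr4:149744036-149774277), which imports pyrimidine nucleotides used for mitochondrial DNA and RNA, was at 900, 716 and 759 in WT RT, at 1410, 1436 and 1823 in WT Cold and at 1615, 1686 and 1592 in GCN2 KO Cold. The cold libraries were all above WT RT and overlapped each other, with log2 fold changes of 0.98 (SE 0.13, adjusted p = 0.00215) and 1.05 (SE 0.10, adjusted p = 0.000322). Of its exon bases, 14.9% overlap an antisense gene, Gm13068, and the strand setting of the counting is not given in the sources used here, so reads of the 2 genes cannot be told apart there. Slc25a51, the carrier of NAD, rose from 11671, 10030 and 12573 in WT RT to 18718, 18394 and 21979 in WT Cold and to 17750, 18489 and 19079 in GCN2 KO Cold. Again no cold library reached down to the WT RT range (log2 fold changes 0.79, SE 0.11, adjusted p = 0.00234, and 0.70, SE 0.10, adjusted p = 0.00131).

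Slc25a42, a carrier of CoA, was the other member of the group to rise in WT Cold, from 3695 ± 383 to 4821 ± 601 (SD, n = 3; log2 fold change 0.39, adjusted p = 0.0439), a call that was lost with CPM and when any library other than C of WT Cold was left out (adjusted p = 0.0633 to 0.137). In GCN2 KO Cold its mean was 4418 ± 596 (0.26, adjusted p = 0.132, or 0.37 and 0.0319 without library A of GCN2 KO Cold). The carriers of S-adenosylmethionine (Slc25a26), folate and FAD (Slc25a32) and pyrimidines (Slc25a36), together with Slc25a16, lay between -0.18 and 0.17 on the log2 scale in WT Cold and did not pass in the limma fit of either comparison with WT RT. For Slc25a32 the log2 fold change in GCN2 KO Cold was -0.38 (adjusted p = 0.0643 by limma), and it was called lower by DESeq2 (-0.39, adjusted p = 0.042), edgeR (-0.41, adjusted p = 0.0382) and with CPM (-0.58, adjusted p = 0.00916).

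Of the ADP/ATP carriers, through which ATP made in the matrix reaches the cytosol, Slc25a5 rose in both comparisons with WT RT. Slc25a5 had 13613, 14357 and 14597 normalised counts in WT RT, 17775, 17375 and 16844 in WT Cold and 20119, 19460 and 22641 in GCN2 KO Cold. The groups did not overlap, and its log2 fold change against WT RT was 0.29 (SE 0.07, adjusted p = 0.0162) in WT Cold and 0.55 (SE 0.08, adjusted p = 0.00195) in GCN2 KO Cold. The WT Cold call was lost with CPM (0.21) and without library A of WT RT (adjusted p = 0.0592) or library A or B of WT Cold (0.0639 and 0.0581). Slc25a4 was at 12338, 10496 and 11419 in WT RT, at 15180, 14688 and 12081 in WT Cold and at 15875, 15344 and 14032 in GCN2 KO Cold. Library C of WT Cold lay inside the WT RT range, and the log2 fold change of 0.29 (SE 0.11) did not pass (adjusted p = 0.0794, or 0.0145 without that library), whereas 0.41 (SE 0.09) in GCN2 KO Cold did (adjusted p = 0.00919), though not with CPM (0.21). Slc25a31 held 1.72 to 39.3 in the 9 libraries and did not pass by limma, DESeq2 or edgeR (log2 fold changes 0.55 and 1.44), though it was called higher in GCN2 KO Cold without library C of WT RT (2.30, adjusted p = 0.0407). The pseudogene Slc25a5-ps, whose reads may be shared with Slc25a5, held 3.35 to 19.6.

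Of the calcium-regulated ATP-Mg/phosphate carriers, which set the adenine nucleotide pool of the matrix, Slc25a23 fell in WT Cold. It was measured at 2740, 2135 and 2488 in WT RT, at 1875, 1744 and 1496 in WT Cold and at 2258, 2198 and 1542 in GCN2 KO Cold. WT Cold lay below WT RT (log2 fold change -0.52, SE 0.12, adjusted p = 0.0167, or 0.0579 and 0.0541 without library A or C of WT RT) and GCN2 KO Cold overlapped it (-0.30, SE 0.16, adjusted p = 0.173), though with CPM the fall in GCN2 KO Cold was -0.51 and passed (adjusted p = 0.0359). With the difference between the cold groups at 0.21 (SE 0.16, adjusted p = 0.584), the 2 responses were not shown to differ. Slc25a25 had 430, 351 and 414 in WT RT, 489, 563 and 1340 in WT Cold and 430, 542 and 513 in GCN2 KO Cold, so that library C raised its WT Cold mean to 797 ± 471 (0.86, SE 0.34, adjusted p = 0.101 by limma). DESeq2 called it higher and past both thresholds (1.01, adjusted p = 0.00908), and edgeR did not call it (adjusted p = 0.075). The same library was the highest WT Cold library for Slc25a13, Slc25a15, Slc25a32 and Slc25a47. Without it, Slc25a25 rose in WT Cold by 0.41 (adjusted p = 0.0487), and Slc25a32 (-0.50, adjusted p = 0.0498) and Slc25a47 (adjusted p = 0.00574) fell. Slc25a24 passed in neither comparison, and Slc25a3, the carrier of phosphate and copper, had group means of 12790 ± 828, 13120 ± 963 and 12999 ± 492 (0.04 and 0.03, adjusted p = 0.753 and 0.79).

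Carriers of amino acids were mixed, with 3 of 8 rising and none falling in WT Cold, beside 13.6% and 14.1% of all genes. Under CPM 2 rose and 1 fell, beside 9.41% and 17.4% of all genes. Slc25a22, a glutamate carrier, was at 2643, 2755 and 2892 in WT RT, at 4123, 4506 and 3779 in WT Cold and at 4686, 4839 and 4461 in GCN2 KO Cold. Its cold libraries all exceeded WT RT, by log2 fold changes of 0.58 (SE 0.08, adjusted p = 0.0026) and 0.76 (SE 0.07, adjusted p = 0.000298). Slc25a29, a carrier of basic amino acids, was low, with 62.9, 70.5 and 72.6 in WT RT, 130, 168 and 87.7 in WT Cold and 154, 161 and 137 in GCN2 KO Cold. It rose in both comparisons (0.85, SE 0.25, adjusted p = 0.0405, and 1.13, SE 0.17, adjusted p = 0.00207), but the WT Cold call was lost with CPM (0.77, adjusted p = 0.0641), without the variance trend (adjusted p = 0.0572) and when any library other than C of WT Cold was left out (adjusted p = 0.0836 to 0.13). Slc25a38, the glycine carrier that feeds haem synthesis, rose from 346 ± 44.4 in WT RT to 488 ± 19.4 in WT Cold (0.51, adjusted p = 0.0194) and 511 ± 49.9 in GCN2 KO Cold (0.57, adjusted p = 0.0118), beside the higher erythroid marker sum in the cold, whose part in it was not tested. Without library A or B of either group its adjusted p in WT Cold was 0.0551 to 0.0682.

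Slc25a44, which carries branched-chain amino acids into the mitochondria of brown fat, was at 3477, 3050 and 3863 in WT RT, 3047, 2650 and 2645 in WT Cold and 2785, 2760 and 2965 in GCN2 KO Cold. All cold libraries were below all WT RT libraries, yet neither difference passed (-0.31, SE 0.11, adjusted p = 0.0644, and -0.28, SE 0.10, adjusted p = 0.0568), and both passed with CPM (-0.39 and -0.48) and the second with edgeR (adjusted p = 0.0366). The aspartate/glutamate carrier Slc25a13 and the ornithine carrier Slc25a15 differed from WT RT by -0.29 and 0.12 in WT Cold and by 0.09 and 0.26 in GCN2 KO Cold, and did not pass by limma, DESeq2 or edgeR, but without library C of WT Cold Slc25a13 fell in WT Cold (-0.79, adjusted p = 0.0224). Slc25a18 held 0 to 21.4 normalised counts in the 9 libraries, is listed in 2 of the 3 tables and passed in neither (2.03, SE 0.96, adjusted p = 0.154 in WT Cold).

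Slc25a20, the carnitine/acylcarnitine carrier through which long-chain fatty acyl groups enter the matrix, had 17378, 16893 and 18772 in WT RT, 21439, 19758 and 21599 in WT Cold and 23435, 25700 and 24784 in GCN2 KO Cold. The 3 groups did not overlap. Its rise was 0.25 in WT Cold (SE 0.08, adjusted p = 0.0487), which stood just inside the threshold, and 0.48 in GCN2 KO Cold (SE 0.08, adjusted p = 0.00288). The WT Cold call was lost with edgeR (adjusted p = 0.0539), with CPM (0.116) and when any library other than C of WT RT was left out (0.0701 to 0.143).

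The carriers of iron and glutathione, Slc25a28, Slc25a37, Slc25a39 and Slc25a40, did not pass in WT Cold by limma, DESeq2 or edgeR, while Slc25a40 was called lower with CPM (-0.47, adjusted p = 0.039, against -0.39 and 0.0653). Slc25a39 was at 7975, 8735 and 10244 in WT RT, at 10031, 11001 and 10466 in WT Cold and at 12814, 13011 and 12581 in GCN2 KO Cold. WT Cold overlapped WT RT (0.24, SE 0.10, adjusted p = 0.117, or 0.33 and 0.0347 without library C of WT RT), and GCN2 KO Cold lay above it (0.52, SE 0.10, adjusted p = 0.00457). Slc25a37, the mitoferrin of red cell precursors, rose in GCN2 KO Cold from 370 ± 39.1 to 490 ± 50.3 (0.41, adjusted p = 0.0355). That call was lost with CPM and without library A or C of WT RT or A or B of GCN2 KO Cold (adjusted p = 0.0571 to 0.111). Again the erythroid marker sum was higher there, and its part was not tested.

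Among members that passed, those listed here without an assigned substrate held the largest changes. Slc25a34 (ENSMUSG00000040740; chr4:141618824-141623821) was measured at 427, 929 and 918 in WT RT, at 2738, 2690 and 2429 in WT Cold and at 3099, 3482 and 3210 in GCN2 KO Cold. Library A of WT RT was the lowest, and the groups did not overlap. The WT Cold mean of 2619 ± 166 was 3.45 times the WT RT mean of 758 ± 287 (log2 fold change 1.88, SE 0.27, adjusted p = 0.00278), and the GCN2 KO Cold mean of 3264 ± 197 was 4.3 times it (2.19, SE 0.27, adjusted p = 0.000818). Slc25a35, its close relative, was at 1975 to 2897 in WT RT, 1714 to 2643 in WT Cold and 2659 to 3032 in GCN2 KO Cold and did not pass (-0.10 and 0.29), though it rose in GCN2 KO Cold without library C of WT RT (0.44, adjusted p = 0.0234). Of its exon bases, 31.3% overlap those of Rangrf on the opposite strand.

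Slc25a48 (ENSMUSG00000021509; chr13:56438355-56474239), since linked to choline import into mitochondria, showed the deepest fall. Its libraries held 683, 773 and 964 in WT RT, 200, 151 and 229 in WT Cold and 137, 182 and 212 in GCN2 KO Cold. The cold groups overlapped, and both lay far below WT RT, at 0.24 times its mean (log2 fold change -2.05, SE 0.19, adjusted p = 0.00049) and 0.22 times (-2.18, SE 0.19, adjusted p = 0.000221). Slc25a45 was at 133, 145 and 144 in WT RT, 102, 114 and 107 in WT Cold and 149, 164 and 134 in GCN2 KO Cold, so that WT Cold was the lowest group without overlap, but it did not pass by limma, DESeq2 or edgeR (-0.38, adjusted p = 0.0966, and 0.46 between the cold groups, adjusted p = 0.235). In WT Cold it was called lower without the variance trend (adjusted p = 0.0403) and in the fit of all 9 libraries (-0.46, adjusted p = 0.039). Slc25a47 and Slc25a53 passed in neither comparison.

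Slc25a46, an outer membrane member that takes part in mitochondrial fusion and fission, rose from 2865 ± 239 to 4044 ± 137 in WT Cold (0.50, SE 0.08, adjusted p = 0.00421) and 4145 ± 433 in GCN2 KO Cold (0.54, SE 0.10, adjusted p = 0.00474). The relatives of the uncoupling proteins, Slc25a14, Slc25a27 and Slc25a30, had group means between 31.6 and 207 normalised counts and passed in neither comparison.

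Between the cold groups, no member passed the adjusted threshold, as did 0.405% of all 16312 genes, and the members' median log2 fold change was 0.14 beside -0.00 for all genes (0.02 and -0.12 with CPM). An unadjusted p under 0.05 was reached by 9 members, 8 higher and 1 lower in GCN2 KO Cold, or 20.5% against 15.3% of all genes. With CPM it was reached by 4 members, 1 higher and 3 lower, and of all 16312 genes by 458 higher and 2526 lower. For 10 members (22.7%) the 3 libraries of each cold group did not overlap, as was so for 22% of all genes. DESeq2 on the recovered reads called 1 member, Slc25a12 (2.27% against 3.29% of all genes), and edgeR called none.

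Slc25a12, the aspartate/glutamate carrier of excitable tissues and another limb of the malate-aspartate shuttle, stood out by its size. It was measured at 520, 474 and 427 in WT RT, 737, 626 and 512 in WT Cold and 366, 382 and 224 in GCN2 KO Cold. GCN2 KO Cold lay below the other groups in every library, at a mean of 324 ± 87 against 625 ± 113 in WT Cold (log2 fold change -0.97, SE 0.23, adjusted p = 0.133 by limma and 0.00377 by DESeq2). For WT Cold against WT RT the log2 fold change of Slc25a12 was 0.39 (adjusted p = 0.0877), or 0.53 without library C of WT Cold, where it passed (adjusted p = 0.0162). For GCN2 KO Cold against WT RT the log2 fold change was -0.58 (adjusted p = 0.061 by limma), and it was called lower by DESeq2 (adjusted p = 0.0362), with CPM (adjusted p = 0.0218) and in the fit of all 9 libraries (adjusted p = 0.0193). Between the cold groups, over the alternatives, the limma and edgeR fits and DESeq2 gave -1.11 to -0.73 with adjusted p between 0.00377 and 0.38. Skeletal muscle markers moved alongside, with negative log2 fold changes in GCN2 KO Cold against WT Cold for all 10 (-3.34 to -1.33), of which Myh7 alone passed by limma (adjusted p = 0.0483), and no marker was at 0. DESeq2 called 4 of the 10 lower (Myh7, Mb, Myh2 and Myh1), beside 3.29% of all genes in either direction, and edgeR called none of the 10. Library C of each group was the lowest for Slc25a12 and for the muscle sum alike. Their part in the difference was not tested.

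The other small p-values belonged to members that were higher in GCN2 KO Cold. The differences were 0.26 for Slc25a11 (SE 0.06, adjusted p = 0.13), 0.29 for Slc25a39 (SE 0.07, adjusted p = 0.135), 0.32 for Slc25a34 (SE 0.08, adjusted p = 0.155) and 0.23 for Slc25a20 (SE 0.08, adjusted p = 0.208). In each of these, every GCN2 KO Cold library lay above every WT Cold library, by the values given above. Slc25a5 (0.26, adjusted p = 0.211), Slc25a45 (0.46, adjusted p = 0.235), Slc25a17 (0.32, adjusted p = 0.247) and Slc25a35 (0.39, adjusted p = 0.303) followed. With CPM the differences were 0.15 for Slc25a11, 0.17 for Slc25a39, 0.20 for Slc25a34 and Slc25a17, 0.12 for Slc25a20 and 0.14 for Slc25a5. Those of Slc25a45 and Slc25a35 were 0.35 and 0.27. Slc25a1 (0.37, SE 0.18, adjusted p = 0.385), Slc25a10 (0.16, SE 0.15), Slc25a33 (0.08, SE 0.11; -0.04 with CPM), Slc25a48 (-0.13, SE 0.22) and Slc25a51 (-0.09, SE 0.09) passed in no fit. No GCN2 KO group at 23°C was analysed here, so an effect of genotype on the change with cold could not be tested.

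**Figure D4:**
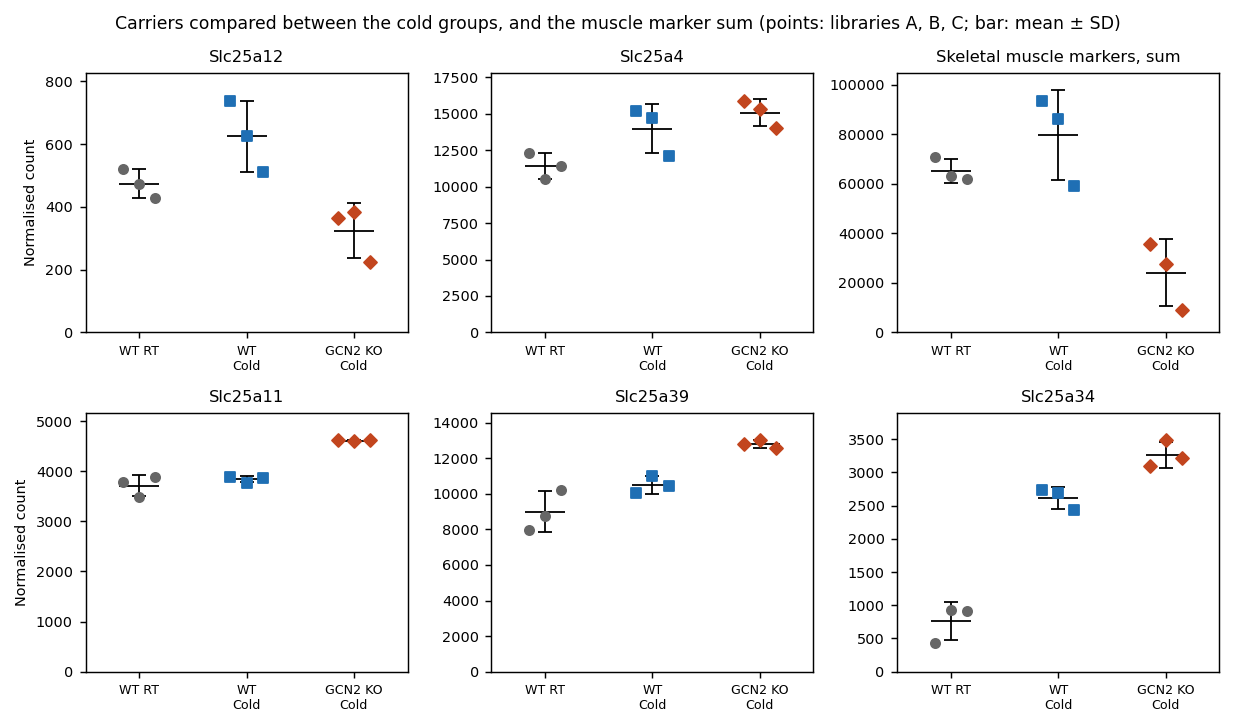
Normalised count of 5 carriers, and the summed normalised count of 10 skeletal muscle markers, in each library of WT RT, WT Cold and GCN2 KO Cold (points, libraries A, B and C) with the mean and SD of each group (n = 3). GCN2 KO Cold libraries lie below WT Cold for Slc25a12 and the muscle sum, above it for Slc25a11, Slc25a39 and Slc25a34, and overlap it for Slc25a4.

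Relatives under other symbols were set beside the members. Ucp1 rose in both cold groups, from 95554 to 139470 normalised counts in WT RT to at least 233987 in every cold library (log2 fold changes 1.02, SE 0.16, adjusted p = 0.00344, and 1.30, SE 0.17, adjusted p = 0.00101). The outer membrane relatives Mtch1 and Mtch2 rose in GCN2 KO Cold by 0.36 and 0.23, calls that were lost with CPM (0.15 and 0.02), and did not pass in WT Cold (0.04 and 0.04), and Ucp2 and Ucp3 passed in neither comparison. Of the 10 genes tested whose products bring carrier proteins to the inner membrane, 6 rose and none fell in WT Cold (median 0.47), beside 13.6% and 14.1% of all genes, and 8 rose in GCN2 KO Cold (median 0.82), beside 16.4%. Timm8a1, a small chaperone of the intermembrane space, rose by 1.16 (SE 0.11, adjusted p = 0.000587) and 1.45 (SE 0.12, adjusted p = 0.000212), and Timm10 and Timm9, which form another chaperone complex of that space, by 0.99 and 0.92 in WT Cold. Timm13, the partner of Timm8a1, did not pass in WT Cold (0.15, adjusted p = 0.219). Between the cold groups none of the 10 passed by limma or edgeR, and DESeq2 called 2 higher in GCN2 KO Cold, Timm8b (0.43, adjusted p = 0.00357) and Timm13 (0.44, adjusted p = 0.0113). Of all genes, DESeq2 called 3.29% there in either direction.

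Enzymes and other carriers of the routes that Slc25 proteins serve were tested beside them. Of 12, Got1 and Mdh2 rose and Gpd2 and Mpc1 fell in WT Cold, and the median was -0.04 (1 rose and 3 fell with CPM, with a median of -0.12). These are 2 of 12 in each direction, beside 13.6% and 14.1% of all genes, or 9.41% and 17.4% of all genes with CPM. Got1, the cytosolic aspartate aminotransferase of the malate-aspartate shuttle, was at 1561, 1449 and 1914 in WT RT, 6808, 6042 and 5469 in WT Cold and 5396, 5084 and 6592 in GCN2 KO Cold (1.90, SE 0.12, adjusted p = 0.000131, and 1.80, SE 0.13, adjusted p = 0.000115). Its mitochondrial counterpart Got2 differed by 0.02 in WT Cold and fell in GCN2 KO Cold (-0.42, SE 0.09, adjusted p = 0.00996). In GCN2 KO Cold, Got1, Mdh1 and Mdh2 rose and Got2 and Gpd2 fell, beside 16.4% and 17.8% of all genes. Under CPM Mpc1 fell too (-0.30, adjusted p = 0.0456), beside 8.97% of all genes that rose and 29.1% that fell. The carnitine enzymes Cpt1a, Cpt1b, Cpt2 and Crat, which work with Slc25a20, passed in neither comparison, with log2 fold changes between -0.28 and 0.12, except that with CPM Cpt2 was lower in WT Cold (-0.37, adjusted p = 0.0431). Between the cold groups, none of the 12 passed by limma or edgeR. DESeq2 called Mdh1 higher (0.35, adjusted p = 0.0108) and Got2 lower (-0.43, adjusted p = 0.0422) in GCN2 KO Cold, beside 3.29% of all genes in either direction.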

How the data were processed

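BAT of 9 mice was sequenced from libraries made with the NEBNext Ultra II RNA kit after poly(A) enrichment. Per the labels, the authors trimmed reads with Trimmomatic 0.36, aligned them to GRCm39 with STAR 2.5.2b, counted them with featureCounts of Subread 1.5.2 and compared groups with DESeq2. The deposited signal is the authors' normalised count, in which each library's reads per gene were divided by 1 size factor, set anew in each of 3 tables of 2 groups. The deposited log2 fold changes, p-values and adjusted p-values of the authors' own comparisons were not used.

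Whole reads were recovered from the deposited values of all libraries (100% of values whole within 0.01), and reads of a library recovered from different tables differed for 0 genes. Each table was fitted with limma 3.58.1 in R 4.3.3 on log2(normalised count + 1) over all listed genes (16679, 16312 and 16560, with at least 61 reads over 6 libraries), two-sided, with p-values adjusted by Benjamini-Hochberg and the trend of variance with mean modelled. A gene passed at an adjusted p under 0.05. Fold changes are on this scale, so those of genes with few counts depend on the pseudocount. Printed library values use median-of-ratios size factors set over the 9 libraries together, while fold changes come from the factors of each table. Columns were assigned to groups by the pair of tables that share them, and libraries were named A, B and C by code. Exon lengths and gene spans come from GENCODE M21 (GRCm38), promoters from RefSeq, and genes were matched by Ensembl ID (44 of 44 members). Because the files hold no coordinates, no position was moved between builds.

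Alternatives were DESeq2 1.42.0 and edgeR 4.0.16 on recovered reads, pseudocounts of 0.5 and 5, a mean of at least 50, scaling by the library total (CPM), no trend, 1 fit of all 9 libraries and leaving out each library. The fits were tested on simulated data. Members given in every library were those past both thresholds, the 5 largest rises and falls that passed, the 5 smallest p-values between the cold groups and the 5 highest levels per length, and values are also given library by library for Slc25a25, Slc25a44 and Slc25a45, which were chosen after their values were seen. A member counted in the totals is not reported here by name. The members and gene lists were chosen with earlier results of these data known.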

Additional observations from a re-analysis of the deposited data

How the results depend on the processing

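No paired analysis was possible because the columns carry no replicate numbers. Of the results for the 16 members given in every library, 638 kept their direction and their side of the threshold under an alternative, 29 lost the call, 13 gained it and 8 turned direction, none of the 8 in a comparison where the member had passed. Leaving out each library in turn gave 9 to 20 members passing in WT Cold vs WT RT (4 to 6 past both thresholds), 0 to 0 in GCN2 KO Cold vs WT Cold (0 to 0) and 16 to 19 in GCN2 KO Cold vs WT RT (5 to 7). The share of all genes called in each of these fits is not given here. Between the cold groups, DESeq2, the fit of all 9 libraries and the fit without library C of both cold groups, which was chosen after seeing the data, each called 1 member, Slc25a12, and the fit of all 9 libraries also put 1 member past both thresholds; the cause was not tested. CPM scaling and the fit of all 9 libraries, which uses the same scaling, turned Slc25a11 in WT Cold vs WT RT to -0.030 and, between the cold groups, Slc25a33 to -0.041 and Slc25a4 to -0.0031. Slc25a48 between the cold groups ranged from -0.29 to 0.042 when each library was left out, with 0.0022 without library C of WT Cold and 0.042 without library A of GCN2 KO Cold. With fewer than 40 normalised counts in any library, Slc25a18, Slc25a21, Slc25a31 and Slc25a5-ps have standard errors between 0.34 and 1.04 on the log2 scale.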
